A study of Mus musculus with 6 samples.

Results

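Mir202 is a single mouse miRNA gene, and its members here were the reads of 18 to 26 nt found without mismatch on the sense strand of its hairpin. It is 1 of 2201 GENCODE miRNA genes, of which 1652 had a read. Its reads numbered 45675 over 6 small RNA libraries of whole C57BL/6 testis, cut to an 18 to 35 nt fraction. The libraries came from testis lacking Dnmt3L and from WT littermates at 10 days post partum (dpp), from testis lacking Miwi2 and from WT littermates at 10 dpp, and from testis lacking Dnmt3L and from WT littermates at 16.5 days post coitum (dpc). DNMT3L works with the enzymes that set new DNA methylation, and MIWI2 is a PIWI protein that guides transposon silencing in fetal germ cells. Each library is 1 pool, of 3 mice per genotype at 10 dpp and of 7 or 8 at 16.5 dpc, so no group has a second library and no difference has a replicate check or a test. Whether the knockouts (KO) were constitutive, and how their alleles were made, is not given in the sources used here.

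A miRNA is cut from a hairpin by Drosha and then Dicer, which leaves a duplex of a 5p and a 3p strand. A strand that is loaded into an Argonaute protein pairs with target mRNAs mainly through its seed, the bases from position 2 to 8. Mir202 is known as a gonadal miRNA, and in the fetal mouse testis it is known from Sertoli cells, the somatic cells that enclose germ cells in the cords. Its 3p strand is counted with the let-7 family in some classifications, whereas the 5p strand is known as the prevailing product in the mouse gonad.

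The gene (ENSMUSG00000065502.1) lies on GRCm38 chromosome 7, from 139957689 to 139957760 on the minus strand. It is inside exon 2 of the lincRNA Gm2044 (139957005 to 139958039, minus strand), so the hairpin is exonic in a noncoding transcript. A second annotated miRNA gene, mmu-mir-7686, starts 66 bases downstream in the same exon (139957566 to 139957622). On the plus strand the locus is intronic in Gm16201, a noncoding gene (139950396 to 139978977). The nearest protein-coding gene on the side of lower coordinates is Utf1, 12576 bases away, and on the other side 6430531B16Rik, 14542 bases away. The hairpin sequence below, from RefSeq (GRCm38.p6, chr7:139957689-139957760, minus strand), has both mature strands in capitals, and the mature sequences under it have the seed in capitals. They are shown because the results turn on the balance of the strands and on where each one starts. The sequences of let-7a and let-7j are set beside miR-202-3p because they share seed bases with it.
Mir202 hairpin: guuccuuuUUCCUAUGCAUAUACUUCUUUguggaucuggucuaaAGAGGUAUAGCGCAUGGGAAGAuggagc
miR-202-5p: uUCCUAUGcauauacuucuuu
miR-202-3p: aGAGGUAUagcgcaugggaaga
let-7a-5p: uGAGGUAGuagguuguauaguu
let-7j: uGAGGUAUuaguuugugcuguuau

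The predicted fold of the 72-base hairpin pairs 62 bases, with a minimum free energy of -35.5 kcal per mol. In that fold the annotated strands form a duplex with a 3′ overhang of 2 bases at each end, the form that Drosha and Dicer are known to leave. No base of the reads had to be shared with another miRNA gene, since 0 of the 40 Mir202 sequences matched a second one. No read of 18 to 26 nt matched the antisense strand in any of the libraries.

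Mir202 was present in all 6 libraries, at a moderate level. Levels are reads scaled to 1000000 reads of all miRNA genes (RPM of miRNA reads), with 95% exact Poisson intervals. These intervals cover counting error alone, because the reads carry no molecular identifiers and copies of 1 molecule cannot be recognised. At 10 dpp Mir202 stood at 563 RPM (553 to 573) in the Dnmt3L KO, from 12206 reads. Its WT had 397 RPM (390 to 405), from 9711 reads. In the Miwi2 KO the level was 800.2 RPM (786 to 815), from 11484 reads, against 475 RPM (465 to 485), from 8434 reads, in the Miwi2 WT. At 16.5 dpc it was 211 RPM (203 to 219.7), from 2558 reads, in the Dnmt3L KO, and 103 RPM (97.8 to 109), from 1282 reads, in its WT. The order from high to low was therefore Miwi2 KO, Dnmt3L KO, Miwi2 WT and Dnmt3L WT at 10 dpp, then Dnmt3L KO and WT at 16.5 dpc. No counting interval overlapped its neighbour in that order, but the spread between animals is unknown. Every KO stood above its WT, and every library of 10 dpp above both of 16.5 dpc.

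The order depends in part on what the reads are scaled to. Reads of miRNA genes were 75.5% of the library in the Dnmt3L KO and 64.2% in the WT at 10 dpp, 38.6% and 39.4% in the Miwi2 KO and WT, and 25.6% and 29.3% in the Dnmt3L KO and WT at 16.5 dpc. Scaled to all reads of the library, Mir202 had 425 RPM in the Dnmt3L KO and 255 in the WT at 10 dpp. On that scale it had 309 in the Miwi2 KO and 187 in the WT, and 54.2 and 30.3 in the Dnmt3L KO and WT at 16.5 dpc. The Dnmt3L KO of 10 dpp then came first, and each KO still exceeded its WT. Among miRNA genes Mir202 ranked 83rd in the Dnmt3L KO and 99th in the WT at 10 dpp. It ranked 107th and 124th in the Miwi2 KO and WT, and 128th and 182nd in the Dnmt3L KO and WT at 16.5 dpc.

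Set against other miRNA genes, none of these differences in the total of Mir202 passed the size limit used here. This limit for calling a difference was set at a log2 size of 2.53, under which lay 95% of the differences between the WT libraries of 10 dpp, over 315 miRNA genes with at least 1000 reads. In the Dnmt3L KO of 16.5 dpc Mir202 was at 2.04-fold of the WT (interval 1.91 to 2.19, log2 1.03), while the median of 271 miRNA genes was -0.16 on the log2 scale and 2.21% of them were called. In the Dnmt3L KO of 10 dpp it was at 1.42-fold of the WT (1.38 to 1.46, log2 0.50), with a median of 0.25 over 296 genes, of which 25.0% were called and 23.6% were called as lower in the KO. Of these 74 called entries 66 have only a Gm name. Among the 196 genes that also have a RefSeq entry 1, or 0.510%, was called. For that count the scaling and the limit were set again over such genes, which gave a higher limit of 2.98. The Miwi2 KO was at 1.68-fold of its WT (1.64 to 1.73, log2 0.75), with a median of -0.09 over 311 genes and 0.643% called. Taken relative to that median, Mir202 was thus 1.19 higher on the log2 scale in the Dnmt3L KO at 16.5 dpc, 0.25 higher at 10 dpp and 0.84 higher in the Miwi2 KO. Without subtraction of the median, a log2 size at least as large as that of Mir202 was found in 23.2%, 65.2% and 13.8% of the genes in these 3 comparisons. In whole testis, more cells of a type and more RNA per cell cannot be told apart.

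By fold alone, Mir202 differed more between ages than between genotypes. In the Dnmt3L KO Mir202 at 10 dpp was at 2.66-fold of its level at 16.5 dpc (interval 2.55 to 2.78, log2 1.41), with a median of -0.51 over 277 genes and 16.2% called. In the Dnmt3L WT it was at 3.84-fold (3.63 to 4.08, log2 1.94), where the median of 297 genes was 0.29 and 20.9% were called. Neither value passed the limit. An equal or larger log2 size between ages was found in 54.5% of the genes in the KO and 29.0% in the WT. With reads scaled to the whole library and the limit set again on that scale, at 2.28, it was passed at both genotypes, at log2 2.97 for KO and 3.08 for WT. These 2 age comparisons and the KO comparisons use the same libraries. Between both WT libraries of 10 dpp, from which the limit comes, the Miwi2 WT was at 1.196-fold of the Dnmt3L WT (1.16 to 1.23, log2 0.26), with 5.08% called by construction. The median of 315 genes in that pair was 0.66, and Mir202 lay 0.40 below it. This median was not subtracted when the limit was set. The sign of Mir202 between the WT libraries turned with the scaling, to log2 -0.445 per whole library.

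**Figure D1:**
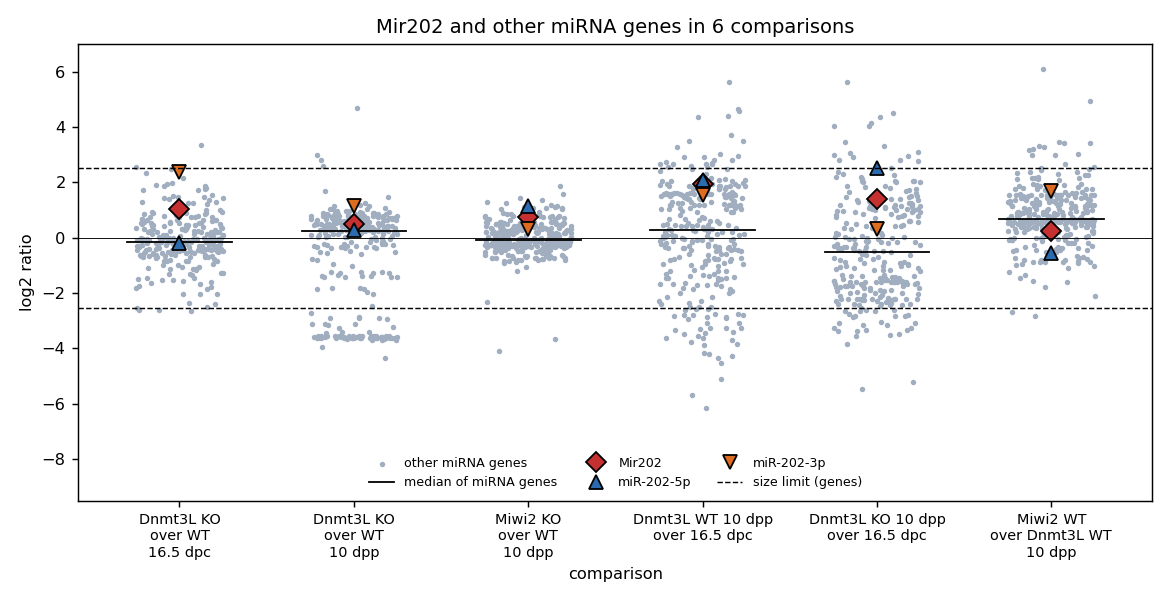
Log2 ratios of Mir202 (diamond), its strands (triangles) and all other miRNA genes with at least 1000 reads (grey points) in 6 comparisons, with dashed lines at the size limit for genes of 2.53. Mir202 lay above the median of the genes in all comparisons but that of the WT libraries, and inside the dashed lines in every one.

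The strands of Mir202 were not in a constant ratio. Counting both strands, miR-202-5p made up 68.3% of Mir202 reads (95% Clopper-Pearson interval 67.5 to 69.2) in the Dnmt3L KO and 79.7% (78.9 to 80.5) in the WT at 10 dpp. Its share was 60.1% (59.2 to 61.0) in the Miwi2 KO and 45.4% (44.3 to 46.4) in the Miwi2 WT. At 16.5 dpc it was 31.5% (29.7 to 33.3) in the Dnmt3L KO and 73.2% (70.7 to 75.6) in the WT. The 5p strand was thus the more frequent one in 4 libraries, and the 3p strand in the fetal Dnmt3L KO and the Miwi2 WT. No age or genotype group held all the high shares.

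By level, the higher total in the fetal Dnmt3L KO lay in the 3p strand. At 16.5 dpc miR-202-3p had 145 RPM of miRNA reads in the Dnmt3L KO, against 27.7 in the WT, which is 5.22-fold (interval 4.65 to 5.88, log2 2.38). The 5p strand had 66.5 RPM in that KO and 75.6 in its WT, 0.879-fold (0.799 to 0.967, log2 -0.19). The limit for strands, from 218 strands compared in the same way between the WT libraries, was 3.003, and 1.07% of 187 strands were called in this comparison. Neither strand passed it, and 4.81% of the strands had a log2 size at least as large as that of miR-202-3p.

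At 10 dpp the Dnmt3L KO again differed more in the 3p strand, at 178 RPM against 80.6 in the WT, 2.21-fold (2.09 to 2.34). Its 5p strand had 385 RPM, against 317 in the WT, 1.21-fold (1.18 to 1.25). In this comparison 0.485% of 206 strands were called, and the median strand had a log2 ratio of 0.41, above the 0.28 of miR-202-5p. The Miwi2 KO went the other way round. Its 5p strand had 481 RPM, against 216 in the Miwi2 WT, 2.23-fold (2.14 to 2.32), and its 3p strand 319 RPM, against 259.6 in the Miwi2 WT, 1.23-fold (1.18 to 1.28), with 0.930% of 215 strands called. At 10 dpp over 16.5 dpc the 5p strand was at 5.78-fold in the Dnmt3L KO and 4.19-fold in the WT, and the 3p strand at 1.23-fold in the KO and 2.91-fold in the WT. These age comparisons called 13.6% of the strands in the KO and 16.2% in the WT, neither strand of Mir202 among them. The pair of WT libraries, which set the limit, called 5.05%, and its median strand had a log2 ratio of 0.92.

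**Figure D2:**
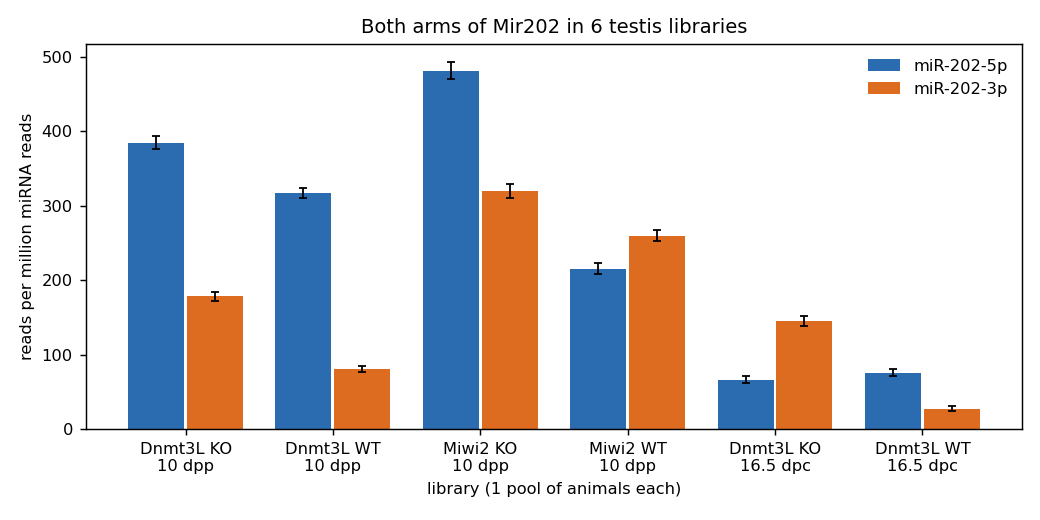
Reads of miR-202-5p and miR-202-3p as RPM of miRNA reads in each of the 6 libraries, with 95% Poisson intervals for counting error. The 5p bar is taller than the 3p bar in 4 libraries, and the 3p bar is taller in the fetal Dnmt3L KO and the Miwi2 WT.

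Shifts of this size in the balance of strands were not rare in these libraries. The log2 ratio of 5p to 3p reads was 1.11 in the Dnmt3L KO and 1.97 in the WT at 10 dpp, 0.59 in the Miwi2 KO and -0.27 in its WT, and at 16.5 dpc -1.12 in the Dnmt3L KO and 1.45 in its WT. Between KO and WT it therefore differed by -0.87 for Dnmt3L at 10 dpp, by 0.86 for Miwi2 and by -2.57 for Dnmt3L at 16.5 dpc. The WT libraries of 10 dpp, the Miwi2 WT against the Dnmt3L WT, differed by -2.24, and the 95th percentile of such differences over 133 miRNA genes with both strands was 2.87. At 16.5 dpc 12.3% of 106 genes exceeded that limit and 17.9% differed at least as much as Mir202, while 0% of 126 genes exceeded it in the Dnmt3L comparison of 10 dpp and 0% of 135 in that of Miwi2. The age comparisons gave a difference of 2.23 in the KO and 0.53 in the WT, with 8.47% and 11.7% of genes past the limit, and the WT libraries 5.26% by construction. This measure was added after the values of Mir202 had been seen.

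Base composition went with the log2 ratios of strands to a degree that varied between comparisons. The strands of Mir202 differ in base composition, with 28.6% G and C in miR-202-5p and 50% in miR-202-3p. In the Dnmt3L KO over WT of 16.5 dpc, the median log2 ratio was -1.18 over 13 strands with up to 35% G and C and 0.05 over 89 strands with at least 50%. Between the Miwi2 KO and WT the medians were 0.63 over 18 such AU-rich strands and -0.05 over 93 GC-rich ones. The Miwi2 WT over the Dnmt3L WT gave 0.31 and 1.56, and the Dnmt3L KO over WT of 10 dpp gave 0.29 and 0.47. Between ages they were 2.20 and -1.44 in the KO and 0.38 and -1.41 in the WT. These comparisons share libraries, and the limits of G and C content were set after the values had been seen. The part of base composition in the balance of the strands was not tested.

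The 5′ ends were precise and mostly where RefSeq places them. Reads of miR-202-5p began at the annotated base in 91.0% to 92.8% of cases in all 6 libraries, and 7.13% to 8.91% began 1 base upstream. Reads of miR-202-3p began at the annotated base in 94.1% of cases in the Dnmt3L KO and 92.3% in the WT at 10 dpp, and in 92.3% and 93.3% in the Miwi2 KO and WT. At 16.5 dpc the shares were 84.1% (interval 82.3 to 85.8) in the Dnmt3L KO and 90.1% (86.5 to 93.1) in the WT. The remainder again began nearly always 1 base upstream, with 15.6% (13.9 to 17.4) in that KO and 9.88% (6.94 to 13.5) in its WT, which rest on 273 and 34 reads. In the 10 dpp libraries this upstream share of the 3p strand was 5.87% to 7.62%.

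A start 1 base upstream shifts the seed, so the most frequent such read of each strand is given with its own seed in capitals, the bases T of the reads being written as U.
miR-202-5p, 1 base upstream: uUUCCUAUgcauauacuucuu
miR-202-3p, 1 base upstream: aAGAGGUAuagcgcaugggaag
No other mature miRNA of the RefSeq table had either shifted seed over bases 2 to 8. The seed of the annotated miR-202-5p also had no other carrier, over bases 2 to 8 or 2 to 7. The seed of miR-202-3p was shared over bases 2 to 8 with let-7j alone, and over bases 2 to 7 with 12 mature miRNAs, which were let-7 miRNAs, miR-98 and miR-1961. Over bases 2 to 7 the shifted 5p seed was also that of miR-384-3p.

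Set beside the let-7 family, miR-202-3p was a small part of the shared seed. Of all miRNA reads with gaggua at bases 2 to 7, Mir202 supplied 0.296% in the Dnmt3L KO and 0.197% in the WT at 10 dpp. It supplied 0.408% in the Miwi2 KO and 0.391% in the WT, and 0.558% and 0.129% in the Dnmt3L KO and WT at 16.5 dpc. With the next base included, gagguau, the picture was the opposite, since 98.4% to 99.9% of those reads in each library were of Mir202. All but 1 of the miRNA reads with uccuau at bases 2 to 7 came from miR-202-5p. As an abundant member of the family, let-7c-5p had 8605 RPM of miRNA reads in the Dnmt3L KO and 4654 in the WT at 16.5 dpc. At 10 dpp let-7c-5p had 16963 RPM in the Dnmt3L KO and 9943 in the WT, and in the Miwi2 KO and WT 15674 and 15675 RPM. Another abundant member, let-7f-5p, went the other way at 16.5 dpc, with 1802 RPM in the Dnmt3L KO and 2528 in the WT. At 10 dpp let-7f-5p had 13287.5 RPM in the Dnmt3L KO and 10855 in the WT, and 24001 and 16067 in the Miwi2 KO and WT.

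The 3′ ends varied more than the 5′ ends. Of the 40 distinct Mir202 sequences, 17 held at least 1% of their strand in some library, and these made up 99.6% of the reads. The most frequent sequence of all, the annotated miR-202-5p of 21 nt, was 40.3% of the 5p reads in the Dnmt3L KO and 45.4% in the WT at 10 dpp. In the Miwi2 KO and WT it was 31.5% and 32.2%, and in the Dnmt3L KO and WT of 16.5 dpc 29.8% and 57.6%. The same strand without its last base was 36.6% and 31.0% in the Dnmt3L KO and WT at 10 dpp, 41.1% and 39.1% in the Miwi2 KO and WT, and 46.5% and 28.04% in the Dnmt3L KO and WT at 16.5 dpc. The 20 nt form thus led in both Miwi2 libraries and in the fetal Dnmt3L KO, and the 21 nt form in the other 3 libraries.

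The annotated 22 nt form of miR-202-3p was 56.6% of the 3p reads in the Dnmt3L KO and 52.8% in the WT at 10 dpp, 51.1% and 49.6% in the Miwi2 KO and WT, and 57.0% and 43.6% in the Dnmt3L KO and WT at 16.5 dpc. The form 1 base shorter held 27.005% and 27.8% of the reads in the Dnmt3L KO and WT at 10 dpp, 32.8% and 35.6% in the Miwi2 KO and WT, and 18.3% and 40.1% in the Dnmt3L KO and WT at 16.5 dpc. At 16.5 dpc the KO thus had shorter 5p reads and longer 3p reads than its WT. Over all reads of a strand, the mean length of 5p reads was 20.3 nt in that KO and 20.8 nt in its WT, and of 3p reads 21.7 and 21.5 nt. Reads of all miRNA genes averaged 22.4 nt in that KO and 22.2 nt in its WT. In the 4 libraries of 10 dpp the means were 20.4 to 20.5 nt for the 5p strand and 21.5 nt for the 3p strand.

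**Figure D3:**
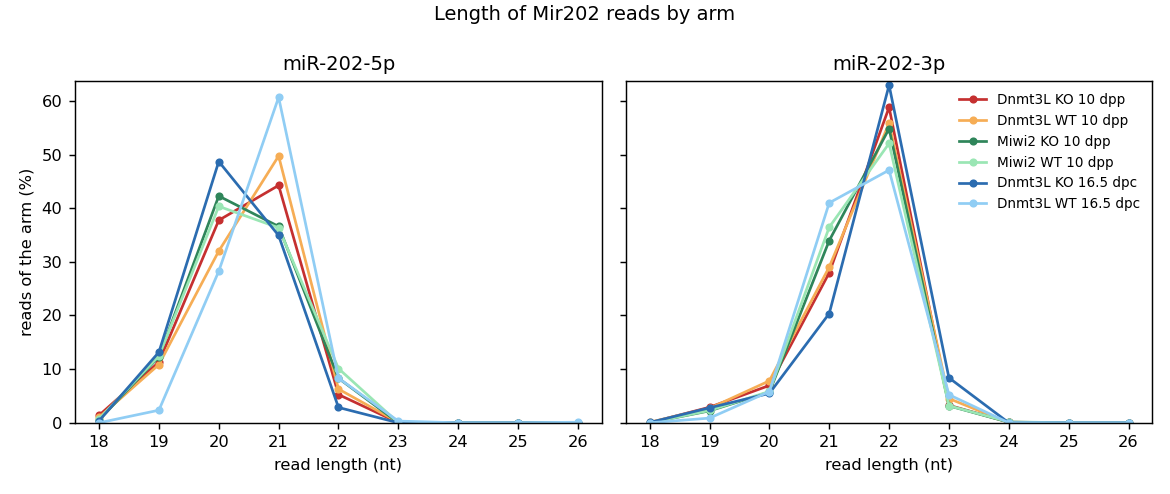
Share of the reads of each strand at each read length from 18 to 26 nt, 1 line per library. The 5p reads peak at 20 nt in the Miwi2 libraries and the Dnmt3L KO of 16.5 dpc and at 21 nt in the other 3, while the 3p reads peak at 22 nt in all 6.

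Some reads carried 1 to 3 bases at the 3′ end that the hairpin does not encode. Such tails were found on 7.11% of miR-202-3p reads (interval 6.35 to 7.94) in the Dnmt3L KO and 6.59% (5.57 to 7.74) in the WT at 10 dpp. They were on 6.83% and 7.82% in the Miwi2 KO and WT, and on 8.03% (6.85 to 9.34) and 11.3% (8.36 to 14.9) in the Dnmt3L KO and WT at 16.5 dpc. The 5p strand had fewer, with 2.19% and 1.91% in the Dnmt3L KO and WT at 10 dpp, 1.76% and 1.39% in the Miwi2 KO and WT, and 3.01% and 4.67% in the Dnmt3L KO and WT at 16.5 dpc. On the 5p strand A alone made up most of the tails, in 142 of 187 tailed reads of the Dnmt3L KO and 123 of 151 of the WT at 10 dpp. The next base of the hairpin after a trimmed 5p read is often U, so an added U cannot be told from an encoded one there. On the 3p strand both A and U were common, with 119 and 115 reads in the Dnmt3L KO and 35 and 80 in the WT at 10 dpp. There the next base of the hairpin is A after the 21 nt form and U after the 22 nt form. An added A or U on these forms likewise cannot be told from an encoded base. Over all miRNA genes, reads with such an end were 13.4% and 11.5% in the Dnmt3L KO and WT at 10 dpp, 16.9% and 16.8% in the Miwi2 KO and WT, and 27.9% and 22.3% in the Dnmt3L KO and WT at 16.5 dpc.

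Small RNA was also read from the rest of the host transcript Gm2044, beside the hairpins and elsewhere. Of all its reads of 18 to 26 nt, 92.7% lay in the Mir202 hairpin in the Dnmt3L KO and 93.0% in the WT at 10 dpp, 92.3% and 88.0% in the Miwi2 KO and WT, and 85.6% and 67.3% in the Dnmt3L KO and WT at 16.5 dpc. A group of reads ended on the base just before the first base of miR-202-5p, the position of the flanking piece at the Drosha cut. They numbered 70 in the Dnmt3L KO and 41 in the WT at 10 dpp, 58 and 85 in the Miwi2 KO and WT, and 5 and 1 in the Dnmt3L KO and WT at 16.5 dpc. The most frequent of them, shown because it abuts miR-202-5p, lies at chr7:139957753-139957772 on the minus strand (GRCm38) and was read 178 times in all.
flank of miR-202-5p: uucucgcuggcuguuccuuu
Reads ending just before mmu-mir-7686, the next miRNA gene of the exon, numbered 117 and 74 in the Dnmt3L KO and WT at 10 dpp, 219 and 243 in the Miwi2 KO and WT, and 42 and 29 in the Dnmt3L KO and WT at 16.5 dpc. All other reads of Gm2044 numbered 223 and 178 in the Dnmt3L KO and WT at 10 dpp, 168 and 137 in the Miwi2 KO and WT, and 84 and 56 in the Dnmt3L KO and WT at 16.5 dpc. They include reads that run past the end of a hairpin.

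The order of the libraries for mmu-mir-7686 depended on the scale. Its hairpin had 25.3 RPM of miRNA reads in the Dnmt3L KO and 17.9 in the WT at 10 dpp, and 35.9 and 38.5 in the Miwi2 KO and WT. In the Dnmt3L KO and WT of 16.5 dpc it had 24.6 and 43.4 RPM, so on that scale its highest level was in the library where Mir202 was lowest. Of all library reads it had 19.1 and 11.5 RPM in the Dnmt3L KO and WT at 10 dpp, 13.8 and 15.2 in the Miwi2 KO and WT, and 6.31 and 12.7 in the Dnmt3L KO and WT at 16.5 dpc. On that scale it was highest in the Dnmt3L KO of 10 dpp, as Mir202 was. Reads of Gm2044 not wholly inside either hairpin stood at 14.3 RPM of all library reads in the Dnmt3L KO and 7.70 in the WT at 10 dpp, 11.96 and 10.3 in the Miwi2 KO and WT, and 2.77 and 2.03 in the Dnmt3L KO and WT at 16.5 dpc. As for Mir202, each KO stood above its WT and 10 dpp above 16.5 dpc. This sum is not of the host transcript alone, since it includes flank reads that reach into a hairpin and reads that run past its end. The first base after the Mir7686 hairpin was covered at 2.72 and 1.68 RPM in the Dnmt3L KO and WT at 10 dpp. It was covered at 1.21 and 0.889 RPM in the Miwi2 KO and WT, and at 0.445 and 0.755 in the Dnmt3L KO and WT at 16.5 dpc. The antisense gene Gm16201 had at most 8 reads in any library.

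**Figure D4:**
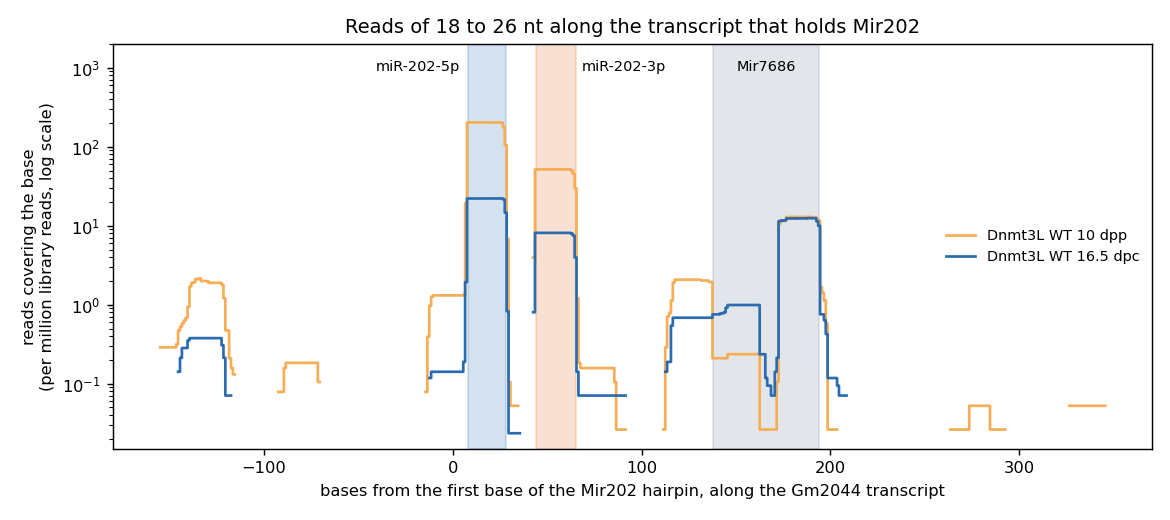
Reads of 18 to 26 nt covering each base of the Gm2044 transcript, as RPM of all library reads on a log scale, in the Dnmt3L WT at 10 dpp and 16.5 dpc. The x axis counts bases from the start of the Mir202 hairpin, bands mark the strands of Mir202 and the Mir7686 hairpin, and the 10 dpp line runs above the 16.5 dpc line over both strands of Mir202 and close to it over the reads of Mir7686.

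The miRNA genes whose levels ran most like that of Mir202 were Mir204, Mir365-1, Mirlet7b, Mir200a and Mirlet7c-2, in that order. Each shares no read sequence with it. Likeness was the Pearson correlation of log2(RPM of miRNA reads + 1) over the 6 libraries, among 385 genes with at least 1000 reads. It was 0.974 for Mir204 and Mir365-1, 0.966 for Mirlet7b, 0.958 for Mir200a and 0.952 for Mirlet7c-2. Reads of let-7 paralogs are shared between genes, so Mirlet7c-2 stands for its copy Mirlet7c-1 as well. The median gene had 0.24, and 25 genes, or 6.49%, exceeded 0.9. All libraries share the split by age, which any gene that is high at 10 dpp follows. Mir204 had 586 RPM in the Dnmt3L KO and 416 in the WT at 10 dpp, 1913 and 799 in the Miwi2 KO and WT, and 70.2 and 37.3 in the Dnmt3L KO and WT at 16.5 dpc. It thus ran over a range of 5.64 on the log2 scale, against 2.94 for Mir202.

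**Figure D5:**
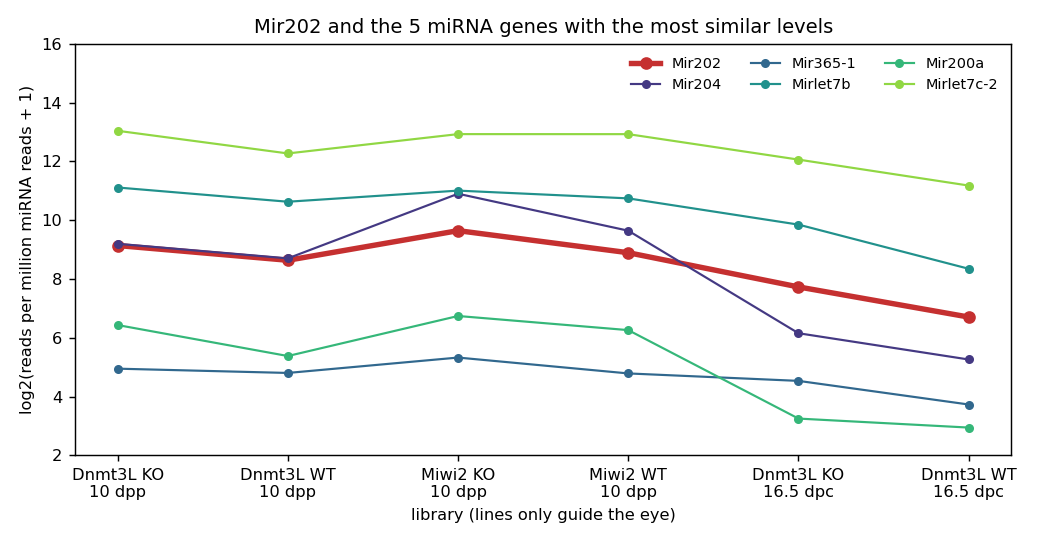
Log2(RPM of miRNA reads + 1) of Mir202 and of the 5 miRNA genes with the highest correlation to it over the 6 libraries, joined by lines only to guide the eye. Each of the 6 genes is lowest in the Dnmt3L WT of 16.5 dpc, and the line of Mir204 is the steepest.

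These libraries cannot place Mir202 in a cell type, and its name as a Sertoli miRNA is background. Short sense fragments of 15 Sertoli mRNAs, which include Sox9, Amh, Wt1 and Dhh, were few. They summed to 12.4 RPM of all library reads in the Dnmt3L KO and 11.3 in the WT at 10 dpp, 12.04 and 13.04 in the Miwi2 KO and WT, and 9.57 and 7.95 in the Dnmt3L KO and WT at 16.5 dpc. Ctsl, a cathepsin gene, had the most of these reads. Without it the sums were 7.60 and 8.09 in the Dnmt3L KO and WT at 10 dpp, 7.52 and 8.06 in the Miwi2 KO and WT, and 5.86 and 5.81 in the Dnmt3L KO and WT at 16.5 dpc, so the higher sum of the Dnmt3L KO at 10 dpp turned. All 15 had a read, and 11 had at least 3 reads in every library. Fragments of 13 germ cell mRNAs summed to 1.99 in the Dnmt3L KO and 12.2 in the WT at 10 dpp, 7.74 and 12.9 in the Miwi2 KO and WT, and 8.47 and 10.6 in the Dnmt3L KO and WT at 16.5 dpc. Zbtb16, a gene of undifferentiated spermatogonia, had the most of these reads. Without it the sums were 1.36 and 4.41 in the Dnmt3L KO and WT at 10 dpp and 5.64 and 5.73 in the Miwi2 KO and WT. At 16.5 dpc they stayed at 8.47 and 10.6, since Zbtb16 had no read there. The Dnmt3L WT was thus higher at 10 dpp with Zbtb16 and higher at 16.5 dpc without it. At 16.5 dpc Pou5f1 had 124 of 400 germ cell reads in the Dnmt3L KO and 206 of 450 in the WT. Those of 6 Leydig cell mRNAs summed to 0.383 and 0.841 in the Dnmt3L KO and WT at 10 dpp, 0.322 and 0.800 in the Miwi2 KO and WT, and 2.56 and 2.10 in the Dnmt3L KO and WT at 16.5 dpc. Without Star, the Leydig gene with most reads, they were 0.209 and 0.131 in the Dnmt3L KO and WT at 10 dpp, 0.188 and 0.0667 in the Miwi2 KO and WT, and 1.97 and 1.39 in the Dnmt3L KO and WT at 16.5 dpc. At 10 dpp Star had 5 of 11 Leydig reads in the Dnmt3L KO and 27 of 32 in its WT. It had 5 of 12 in the Miwi2 KO and 33 of 36 in its WT, so the sums of 10 dpp without it rest on too few reads to compare. Of the Leydig genes Hsd3b6 was at 0 in all libraries.

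Marker miRNAs of other cells did not share 1 direction. The X-linked testis miRNAs, 19 genes known from germ cells of which Mir509 was at 0, summed to 14719 RPM of miRNA reads in the Dnmt3L KO and 52205 in the WT at 10 dpp, 82000 and 41239 in the Miwi2 KO and WT, and 10042 and 10912 in the Dnmt3L KO and WT at 16.5 dpc. Mir140, also known from fetal Sertoli cells, had 757 RPM in the Dnmt3L KO and 624 in the WT at 10 dpp, 1963 and 2042 in the Miwi2 KO and WT, and 1520 and 1056 in the Dnmt3L KO and WT at 16.5 dpc. Of all library reads Mir140 had 572 and 401 RPM in the Dnmt3L KO and WT at 10 dpp, and 757 and 805 in the Miwi2 KO and WT. It had 389 and 309 in the Dnmt3L KO and WT at 16.5 dpc, so its order by age in that line depended on the scale. The 5 peritubular and fibroblast miRNAs summed to 41360 and 46705 RPM in the Dnmt3L KO and WT at 10 dpp, 45658 and 44590 in the Miwi2 KO and WT, and 21308 and 41173 in the Dnmt3L KO and WT at 16.5 dpc. Most of that was Mir143, and the other 4 summed to 10220 and 6053 RPM in the Dnmt3L KO and WT at 10 dpp, 8245 and 8659 in the Miwi2 KO and WT, and 7987 and 7581 in the Dnmt3L KO and WT at 16.5 dpc. The 8 epithelial miRNAs summed to 956 and 507 RPM in the Dnmt3L KO and WT at 10 dpp, 987 and 1095 in the Miwi2 KO and WT, and 306 and 355 in the Dnmt3L KO and WT at 16.5 dpc. Both erythroid miRNAs summed to 45.1 and 25.1 RPM in the Dnmt3L KO and WT at 10 dpp, 54.9 and 42.3 in the Miwi2 KO and WT, and 65.3 and 103 in the Dnmt3L KO and WT at 16.5 dpc. Of all library reads they summed to 34.04 and 16.1 RPM in the Dnmt3L KO and WT at 10 dpp, 21.2 and 16.7 in the Miwi2 KO and WT, and 16.7 and 30.3 in the Dnmt3L KO and WT at 16.5 dpc, so that their highest library depended on the scale. The pluripotency miRNAs, 13 genes of the annotation of which Mir290b, Mir302c and Mir367 were at 0, summed to 48.1 and 60.4 RPM in the Dnmt3L KO and WT at 10 dpp, 70.9 and 93.6 in the Miwi2 KO and WT, and 433 and 599 in the Dnmt3L KO and WT at 16.5 dpc. The endothelial Mir126a stood between 766 and 1860 RPM, and both haematopoietic miRNAs between 101.4 and 212. The 5 miRNAs listed as meiotic summed to 472 and 105 RPM in the Dnmt3L KO and WT at 10 dpp. They had 313 and 699 in the Miwi2 KO and WT, and 762 and 808 in the Dnmt3L KO and WT at 16.5 dpc. Their highest sum was thus fetal on this scale. Of all library reads it was in the Dnmt3L KO of 10 dpp, at 357 RPM. Mir34c had the most of these reads. Without it the sums per miRNA reads were 180 and 14.3 RPM in the Dnmt3L KO and WT at 10 dpp and 37.2 and 262 in the Miwi2 KO and WT. At 16.5 dpc they were 214 and 48.9 in the Dnmt3L KO and WT, so the highest was then in the Miwi2 WT of 10 dpp. The parts of cell makeup in the levels of Mir202 were not tested.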

How the data were processed

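Small RNA reads of 6 testis libraries (TruSeq small RNA kit, total RNA by Trizol, per the labels' protocols) were analysed as the deposited counts, whole numbers of reads per distinct sequence, with no header. The submitters' processing notes name mm9; how reads were trimmed, aligned or filtered is not given in the sources used here. Coordinates are those of GRCm38 (GENCODE vM21, RefSeq). Library totals were 28701563 to 47232494 reads. A count of 3 corresponded to 0.123 to 0.248 RPM of miRNA reads.

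Reads of 18 to 26 nt were matched exactly, sense, to 2201 GENCODE miRNA hairpins. A read found in several miRNA genes was divided evenly. A strand was assigned by the middle of the read. Log2 ratios set counts under 3 to 3. Ratios of strands were taken over genes with both strands in the RefSeq table (623 genes), each with at least 50 reads per strand in the pair compared. Intervals are exact and cover counting error only. Scaling used edgeR 4.0.16 and DESeq2 1.42.0 as alternatives, and the fold came from RNAfold 2.7.2. The counting was tested on simulated data.

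With 1 library per group no test was run. Mir202, the marker lists, the size rule and the naming rule (strands, sequences with at least 1% of a strand, the 5 most correlated genes, seed sharers, neighbouring genes) were chosen with earlier results of these data known. The 5p to 3p ratio, the limits of G and C content, the RefSeq-only alternative and the marker sums without their largest member were added after the values were seen.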

Additional observations from a re-analysis of the deposited data

Results flagged for a closer look

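The balance of the strands of Mir202 differed between KO and WT in opposite directions in the lines compared at 10 dpp. The log2 ratio of 5p to 3p reads differed by -0.87 between the Dnmt3L KO and its WT, lower in the KO, and by 0.86 between the Miwi2 KO and its WT, higher in the KO. This difference between the lines was not tested, since each value rests on 1 library per group. The WT libraries themselves differed by more, at -2.24 for the Miwi2 WT against the Dnmt3L WT, and both KO values lay between theirs. Of the genes with both strands, 8.73% in the Dnmt3L comparison and 13.3% in that of Miwi2 differed at least as much as Mir202.

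The level of miR-202-5p also had opposite signs at the ages of the Dnmt3L line, with a log2 ratio of KO over WT of 0.28 at 10 dpp and -0.19 at 16.5 dpc. That difference was not tested either, and both values are small beside the limit of 3.003 for strands.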

How the results depend on the processing

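The log2 ratio of Mir202 was recomputed under 12 alternatives per comparison, 1 of them, the restriction to miRNA genes with a RefSeq entry, added after the data were seen. KO over WT stayed above 0 and inside the limit in all 12, with 0.083 to 1.30 for Dnmt3L at 16.5 dpc, 0.46 to 1.22 at 10 dpp and 0.25 to 0.78 for Miwi2. The lowest value of each came from distinct sequences counted once. For 10 dpp over 16.5 dpc the limit was passed in the Dnmt3L KO with scaling to all reads (2.97), TMM (2.40), DESeq2 size factors (2.45) and distinct sequences (0.62, limit 0.57). In the Dnmt3L WT it was passed with all reads (3.08) and DESeq2 (2.27). Miwi2 WT over Dnmt3L WT at 10 dpp, 0.26, turned to -0.445 with all reads, -0.53 with TMM, -0.56 with DESeq2 and -0.20 over distinct sequences. The median miRNA gene of the Dnmt3L KO over WT of 10 dpp was 0.96 under TMM, against 0.25 in the report, and Mir202 lay 0.25 above it under both. Counts of called miRNA genes ran from 1 to 24 (6 in the report) and from 1 to 98 (74) for Dnmt3L at 16.5 dpc and 10 dpp, from 1 to 16 (2) for Miwi2, from 20 to 188 (45) and 29 to 144 (62) for age in KO and WT, and from 11 to 63 (16) between the WT libraries. The 74 was 1 among genes with a RefSeq entry and 7 among reads of 1 gene, where the limits, set again, were higher at 2.98 and 3.23. Shares of strands, ends and lengths moved by at most 7.62 percentage points, but by up to 56.8 over distinct sequences. No paired analysis was possible because each group is 1 library with no replicate number. The 34 upstream 3p reads of the fetal WT set the precision of that share.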
